A study of Mus musculus with 6 samples.

Results

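Interferon response genes were followed in pancreatic islets of mice whose beta cells lack Ythdc1. They were chosen by name: protein-coding rows of the expression table whose symbol belongs to the IFIT, IFI, OAS, IRF, GBP, ISG, MX or STAT groups, or is Ifih1, Rsad2, Usp18, Bst2, Zbp1, Ddx58, Xaf1, Parp9 or Dtx3l. The rule took 84 genes of 22046 protein-coding rows and 54532 rows in all. It used no measured value, although it was set with earlier results of these data known. Another 6 rows had a matching name and another biotype and were left out: Ifi30, Oas1b, Mx2, Gbp11, Ifi203-ps and Gbp2-ps. A name is not a function: the rule also takes Irf2bp1, Irf2bp2 and Irf2bpl, which are not interferon regulatory factors, and STAT members that serve mainly other cytokines and hormones. Each group held 3 libraries, which the submitters call independent biological replicates. The control group was Ythdc1flox/flox mice and the other group was Ythdc1-betaKO mice (bKO), which lack Ythdc1 in beta cells, and both were 7 weeks old. Ythdc1 encodes a nuclear reader of N6-methyladenosine in RNA. The promoter that drives the recombinase, and whether control mice carry it, are not given in the sources used here. RNA came from whole islets, so alpha, delta, endothelial and immune cells contribute to every value, and fewer cells of a type cannot be told apart from less RNA per cell. p-values set the group difference against the spread between libraries of a group, with each gene's variance drawn toward a trend over all genes tested.

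Ythdc1 itself checks the labels. Its level in FPKM (fragments scaled for gene length and library size) was 5.76, 6.46 and 6.18 across controls against 3.81, 3.79 and 3.87 across bKO. All 3 bKO values were below all 3 control values, including those of bKO 2 and bKO 3, whose free-text descriptions name Ythdc2 and Ythdc3 where their genotype label names Ythdc1. Beta cell markers were abundant in both groups, although 7 of 10 tested fell and 1, Ucn3, rose, and their summed level, mostly Ins1, Ins2 and Iapp, ran from 202900 to 224700 FPKM in control and from 132100 to 141400 FPKM in bKO. Depth was even, at 16863329 to 18240339 reads per library. Reads of islet hormone genes took 26.7% to 27.8% of the control libraries and 20.4% to 21.7% of the bKO libraries, which matters for the scaling described further on.

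Interferons are secreted proteins that cells release on sensing viral nucleic acid or other danger. Type I interferons bind a receptor of IFNAR chains, whose JAK1 and TYK2 kinases phosphorylate STAT proteins. Together with IRF9 these bind the interferon-stimulated response element (ISRE), and after interferon-gamma STAT proteins bind the gamma-activated site (GAS). Target genes include IFIT, OAS, ISG15 and GBP genes, which block viral translation, degrade RNA or attack intracellular pathogens. In islets the pathway is best known from autoimmune diabetes, where an interferon signature accompanies inflammation around beta cells.

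The promoter sequences below show how the elements lie in chosen members that hold a match. They are RefSeq stretches of GRCm38.p6, written 5′ to 3′ on the gene's own strand, with every match in capitals. The ISRE was searched as GAAANNGAAA and the GAS as TTCNNNGAA, both on either strand, and matches may overlap each other. Windows ran from 250 bases before to 50 bases after each annotated start. The stretches are chr4:156200855-156200916 (minus strand) for Isg15, chr8:71537567-71537628 (minus) for Bst2, chr19:34640765-34640833 (plus) for Ifit1, chr5:120907510-120907643 (minus) for Oas1a, chr3:142559979-142560034 (plus) for Gbp3 and chr11:53769904-53769952 (plus) for Irf1. Ifit3 at chr19:34583353-34583436 (plus) and Gbp2 at chr3:142620584-142620633 (plus) are shown as relatives that did not pass the test.
Isg15: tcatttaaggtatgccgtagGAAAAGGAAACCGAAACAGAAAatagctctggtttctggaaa
Bst2: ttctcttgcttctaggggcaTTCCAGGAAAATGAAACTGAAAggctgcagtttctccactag
Ifit1: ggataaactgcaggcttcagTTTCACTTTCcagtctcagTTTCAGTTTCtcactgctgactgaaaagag
Oas1a: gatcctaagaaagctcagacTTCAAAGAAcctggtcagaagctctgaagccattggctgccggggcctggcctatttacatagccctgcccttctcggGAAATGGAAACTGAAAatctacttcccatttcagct
Gbp3: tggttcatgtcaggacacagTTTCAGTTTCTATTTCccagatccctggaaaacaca
Irf1: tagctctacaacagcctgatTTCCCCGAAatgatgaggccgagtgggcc
Ifit3: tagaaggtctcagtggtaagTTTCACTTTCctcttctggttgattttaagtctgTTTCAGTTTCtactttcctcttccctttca
Gbp2: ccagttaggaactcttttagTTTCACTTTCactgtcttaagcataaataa

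In Isg15 there were 3 overlapping ISRE matches between 78 and 57 bases before the start site. Bst2 held a GAS match that runs into a pair of overlapping ISRE matches. Ifit1 held 2 ISRE matches on the opposite strand, which also fall in the window of its neighbour Ifit1bl2, and Irf1 held a GAS match and no ISRE match. Other members that fell in bKO islets are not shown. Of these, Irf2 held both kinds of match and Ifit2 a GAS match alone, while Stat5b, Stat3, Irf2bpl, Dtx3l and Xaf1 held neither. Of the 84 genes, 66 had an entry in the RefSeq table. Those without one included Gbp4, Gbp6, Gbp8, Gbp9, Gbp10, Ifi27, Ifi27l2a, Ifi27l2b, Ifi204, Mx1, Oas1d, Oas1e, Oas2, Parp9, Usp18 and Zbp1. An ISRE match was present in 32 of 66 interferon response genes (48.5%), against 3.99% of all 27025 genes in the RefSeq table and 4.04% of protein-coding genes. A GAS match was present in 14 of 66 (21.2%), against 9.55% of all genes. The ISRE share was much the same in members that fell in bKO islets, 6 of 13 (46.2%), and in tested members that did not pass, 15 of 32 (46.9%). The GAS share was 5 of 13 (38.5%) and 7 of 32 (21.9%) in the same groups, and the difference was not tested. A match is a run of letters and not a measured binding site.

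**Figure D1:**
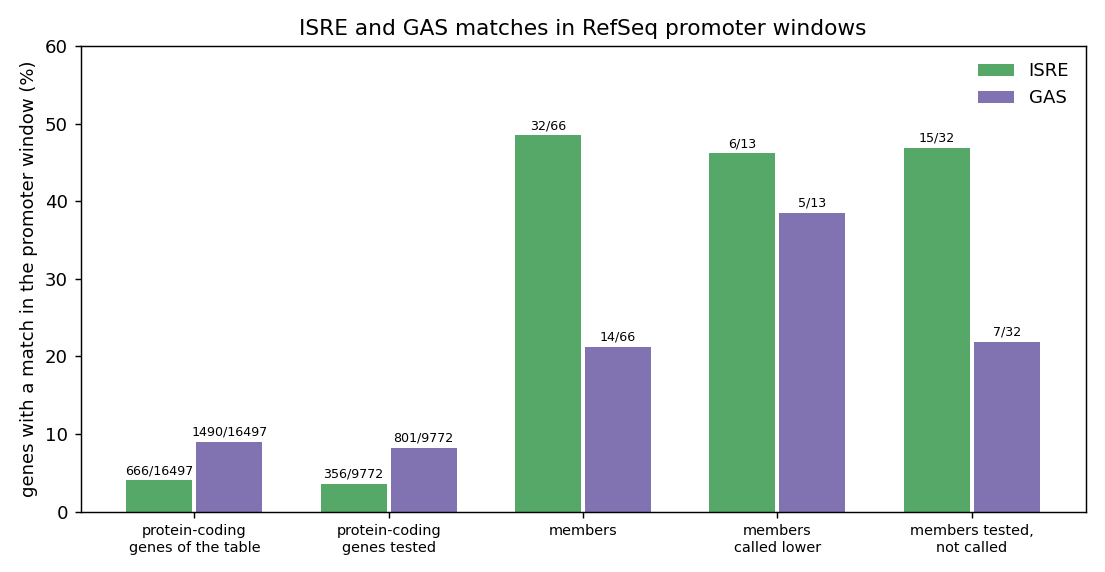
Share of genes (y axis, percent) with an ISRE (green) or GAS (purple) match in the RefSeq promoter window, for protein-coding genes of the table, those tested, all interferon response genes with an entry, members called lower and tested members not called; the counts on the bars are genes with a match over genes with an entry. ISRE bars of the called and the uncalled members stand at nearly the same height, 46.2% and 46.9%, far above the 4.04% of protein-coding genes.

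The interferon response genes that passed the test in bKO islets were all lower, among them antiviral effectors (Oas2, Isg15, Ifit1, Ifit2, Bst2) and transcription factors (Stat3, Stat5b, Irf1, Irf2). Of the 84 genes, 58 passed the filter on low values (at least 0.5 FPKM in at least 3 libraries). Of these, 15 fell (25.9%) and 0 rose in limma's test, with Benjamini-Hochberg adjustment over all 15717 genes tested. Among all genes tested, 11.4% were called lower and 8.96% higher. These are the shares to set beside the counts of families and lists below. Without adjustment, 23 members were lower and 2 higher at p under 0.05, and the share of all genes at that p was not counted. The voom fit of limma on recovered reads called 21 members lower and 2 higher. Among all 15717 genes it called 2394 lower (15.2%) and 1964 higher. Changes were modest: the largest called fall was 0.67 on the log2(FPKM + 1) scale, in Oas2, and the smallest was 0.16, in Irf2bpl. This scale understates the change of low genes, and 36 of the 58 had a mean under 5 FPKM.

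Of the 58, 47 had a negative and 11 a positive log2 fold change (32 and 11 of the 43 uncalled), with a median of -0.18 against -0.01 over all genes tested. In 26 members every bKO library lay below every control library, and in 3 (Gbp8, Stat6 and Mx1) every bKO library lay above. Over all genes tested, 21.6% lay wholly below and 18.5% wholly above. All 15 called members were among the 26, and all 15 reached 0.5 FPKM in all 6 libraries. Gbp8 reached that level in bKO libraries alone and Ifi207 in control libraries alone, and neither was called.

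**Figure D2:**
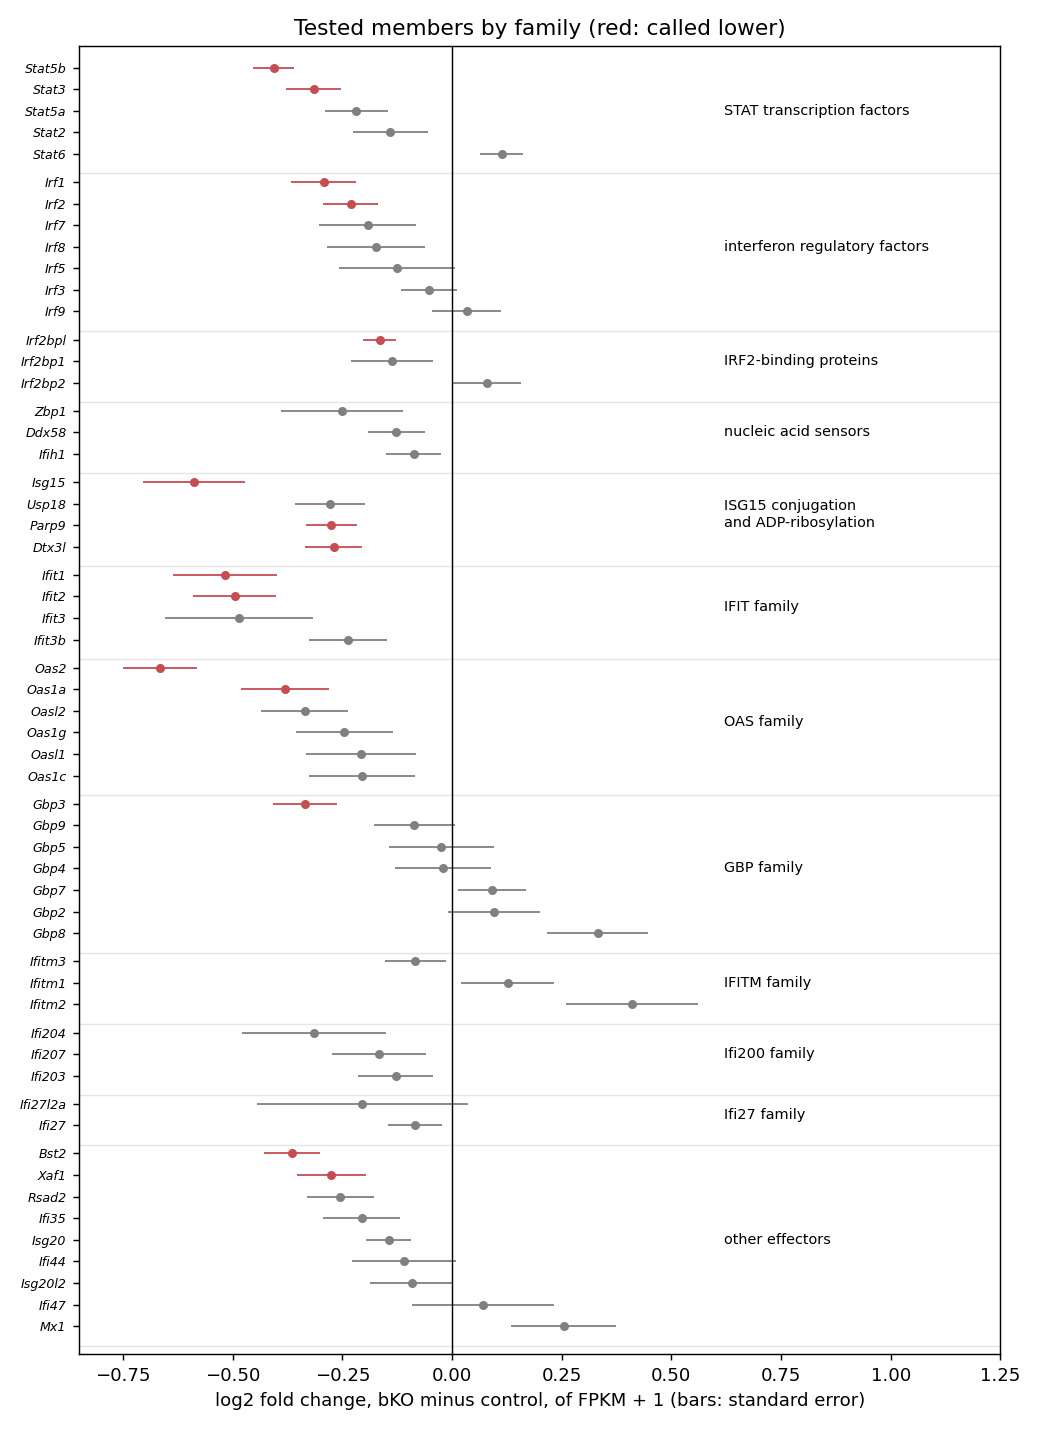
Log2 fold change of FPKM + 1, bKO minus control (x axis), of the tested interferon response genes reported here, ordered by family (y axis); points are limma estimates, bars are standard errors, red marks genes called lower at an adjusted p of at most 0.05. All red points lie left of zero, and the IFIT, OAS and ISG15 groups lie wholly to the left, whereas GBP and IFITM points fall on both sides.

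At the top of the pathway there was almost no interferon to measure. Of 20 genes for ligands and receptor chains, 12 ligand genes had 0 reads in all 6 libraries, Ifnb1 among them. Ifng had 0 reads in control and 2 in bKO, and Ifnk had 5 and 2. Ligand mRNA was thus at or near the limit of detection at this depth. Receptor chains were present, and 1 of 5 tested genes changed. Ifnar1, a chain of the type I receptor, stood at 7.74, 7.92 and 7.74 FPKM in control and at 8.90, 9.25 and 8.74 FPKM in bKO. It rose by 0.18 (SE 0.045, limma adjusted p = 0.0344), although it was called in 0 of 6 fits that left out a library, where its adjusted p ran from 0.0634 to 0.109.

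Receptor kinases and their inhibitors moved in both directions, with 2 lower and 2 higher of 16 tested. Both counts lie near the shares of all genes tested, 11.4% lower and 8.96% higher. Jak1, the kinase shared by all interferon receptors, stood at 25.9, 26.3 and 25.7 FPKM in control and at 17.6, 18.2 and 18.0 FPKM in bKO. The groups were far apart, and it fell by 0.51 (SE 0.036, limma adjusted p = 0.000422). Pias2, which belongs to a family of STAT inhibitors, fell by 0.32 (limma adjusted p = 0.0062). Jak3, the kinase of common gamma chain cytokine receptors, went the other way, from 2.55, 2.85 and 2.41 FPKM to 3.73, 4.17 and 3.65 FPKM, and rose by 0.43 (SE 0.077, limma adjusted p = 0.0105). Socs3, a feedback inhibitor of JAK signalling, rose by 0.25 (limma adjusted p = 0.0285), a call kept without bKO 2 or control 3 but not without any of the other 4 libraries (adjusted p 0.0766 to 0.0889). Tyk2 and Jak2 did not pass, with log2 fold changes of 0.02 and -0.06.

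Of the STAT transcription factors, 2 of 6 tested fell. Stat5b (chr11:100780731-100850724, GRCm38), which transmits growth hormone and prolactin signals and is among the more abundant members, stood at 26.4, 25.4 and 24.1 FPKM in control and at 19.2, 18.4 and 18.9 FPKM in bKO. The 3 bKO values were close together and all below control, and Stat5b fell by 0.41 (SE 0.046, limma adjusted p = 0.00197), a ratio of means of 0.744, and was called whichever library was left out. Stat3, which serves interleukin-6 type cytokines, went from 20.2, 18.3 and 17.8 FPKM to 14.8, 14.1 and 15.7 FPKM. It fell by 0.32 (SE 0.062, limma adjusted p = 0.0144), just missing the threshold without bKO 1 (0.0522) or bKO 2 (0.0503). Stat3 overlaps Stat5a in position, and with no strand setting given their shared reads cannot be assigned.

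Stat2, which carries the type I interferon signal, overlapped between the groups and did not pass (log2 fold change -0.14, limma adjusted p = 0.298). The same held for Irf9, its partner in DNA binding (0.03, limma adjusted p = 0.799).

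Among interferon regulatory factors, 2 of 8 tested fell. Irf1, an early interferon-induced activator, stood at 10.5, 10.1 and 10.8 FPKM in control and at 9.42, 7.70 and 8.15 FPKM in bKO, and Irf2, its antagonist on shared sites, at 3.58, 3.70 and 3.40 FPKM against 3.05, 2.79 and 2.82 FPKM. Neither overlapped between groups. Irf1 fell by 0.29 (limma adjusted p = 0.0347) and Irf2 by 0.23 (limma adjusted p = 0.0444). With 1 library left out, Irf1 passed when that was bKO 1 (0.0171) and ranged from 0.0643 to 0.0964 without each other library. Irf2 passed in 0 of 6 such fits (0.0616 to 0.123). Irf3 and Irf7, which switch on interferon genes after sensing, had log2 fold changes of -0.05 and -0.19, with adjusted p = 0.605 and 0.267 by limma. Of the IRF2-binding proteins, Irf2bpl fell by 0.16 (limma adjusted p = 0.0257, 0 of 6 calls with a library left out, 0.0538 to 0.0866). The most abundant member, Irf2bp2, was at 44.7, 48.9 and 39.0 FPKM in control and 47.1, 46.9 and 45.7 FPKM in bKO, within the same range.

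Of the 3 nucleic acid sensors in the set, limma called 0, also at an unadjusted p under 0.05, and voom called 0. Ifih1 (MDA5) and Ddx58 (RIG-I), which detect viral RNA, had log2 fold changes of -0.09 and -0.13, and Zbp1, which binds Z-form nucleic acid, -0.25, with adjusted p = 0.376, 0.213 and 0.253 by limma. In a wider list of sensors and signalling proteins, 1 rose and 2 fell of 14 tested, also near the shares of all genes tested. Trim25, a ubiquitin ligase that acts on RIG-I, went from 24.1, 25.0 and 22.5 FPKM to 17.9, 17.9 and 18.8 FPKM (fell by 0.37, limma adjusted p = 0.00365). Nod1, a sensor of bacterial peptidoglycan, fell by 0.36 (limma adjusted p = 0.00341). Tmem173, which encodes STING, the adaptor for cytosolic DNA, rose from 0.701, 0.529 and 0.295 FPKM to 1.43, 1.03 and 1.27 FPKM (0.58, limma adjusted p = 0.0273). That rise kept its call without control 1 or bKO 2 but not without any of the other 4 libraries (adjusted p 0.0567 to 0.0923). Of 11 tested genes for double-stranded RNA effectors and editing, Adarb1 and Dicer1 fell, by 0.33 and 0.21 (limma adjusted p = 0.00888 and 0.0198), and 9 were not called. Dicer1 passed without bKO 2, bKO 3 or control 3 and missed without the other 3 libraries (0.0581 to 0.0679).

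In the ISG15 group 3 of 4 tested members fell. Isg15 (chr4:156199424-156200818) encodes a ubiquitin-like protein that is attached to newly made proteins. It stood at 6.33, 6.22 and 6.53 FPKM in control and at 3.24, 3.72 and 4.86 FPKM in bKO. The control libraries were nearly equal and the bKO libraries spread more widely below them, with bKO 3 the highest. Isg15 fell by 0.59 (SE 0.116, limma adjusted p = 0.0147), a ratio of means of 0.62, and narrowly missed without bKO 2 (0.0508). Parp9 and Dtx3l, partners in an ADP-ribosylating ubiquitin ligase, fell by the same amount, 0.27 each (limma adjusted p = 0.0177 and 0.0294). The ends of these genes overlap on opposite strands, and with no strand setting given reads there cannot be assigned. Parp9 missed without bKO 1, bKO 3 or control 1 (0.0551 to 0.0664), and Dtx3l passed when bKO 1 was left out (0.0472) and otherwise ran from 0.0627 to 0.0924. Usp18, which removes ISG15 and restrains the receptor, went from 10.1, 9.63 and 8.56 FPKM to 7.45, 8.32 and 7.04 FPKM, without overlap, and lay just outside the threshold (log2 fold change -0.28, limma adjusted p = 0.0513). With a library left out, Usp18 passed without bKO 2 or control 3, and its limma adjusted p ran from 0.0342 to 0.146.

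All 4 tested IFIT genes lay lower in every bKO library than in any control library. IFIT proteins bind foreign RNA ends and block its translation. Ifit1 stood at 4.16, 3.02 and 4.23 FPKM in control and at 2.59, 2.14 and 2.28 FPKM in bKO, and Ifit2 at 2.39, 2.94 and 2.34 FPKM against 1.63, 1.56 and 1.36 FPKM. Ifit1 fell by 0.52 (SE 0.118, limma adjusted p = 0.0246) and Ifit2 by 0.50 (SE 0.094, limma adjusted p = 0.0128). Ifit2 was called whichever library was left out, while Ifit1 was called when bKO 1 or control 2 was left out and otherwise ran from 0.0653 to 0.0813. Ifit3 stood at 4.16, 4.82 and 4.88 FPKM in control and at 3.22, 3.95 and 2.08 FPKM in bKO. Its log2 fold change was -0.49 and it did not pass (limma adjusted p = 0.0886), though it did without bKO 2 (0.0436). The summed IFIT level was 12.8 ± 0.47 FPKM (SD, n = 3) in control and 8.31 ± 1.1 FPKM in bKO, a ratio of 0.651. IFIT genes are near copies of each other in places, so how reads were shared between them is uncertain.

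OAS genes encode synthetases of a second messenger that activates RNase L. All 6 tested members had negative fold changes and 2 fell. Oas2 (chr5:120730333-120749853, GRCm38) showed the largest change of any tested member on the log2(FPKM + 1) scale, from 2.82, 2.95 and 3.16 FPKM to 1.66, 1.56 and 1.30 FPKM. The groups were well separated and Oas2 fell by 0.67 (SE 0.084, limma adjusted p = 0.00298), a ratio of means of 0.507, and was called whichever library was left out. Oas1a went from 4.09, 3.02 and 3.34 FPKM to 2.24, 2.58 and 2.47 FPKM and fell by 0.38 (limma adjusted p = 0.0397), but with a library left out passed when that was control 2 (0.0347) and otherwise ran from 0.0726 to 0.119. Oasl2 did not pass (log2 fold change -0.34, limma adjusted p = 0.0564). The Oas1 genes are a cluster of close copies, so their separate values are uncertain. Oas2 overlaps a predicted gene. Summed OAS level was 13.4 ± 0.47 FPKM in control and 9.23 ± 0.73 FPKM in bKO (SD, n = 3), a ratio of 0.691.

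**Figure D3:**
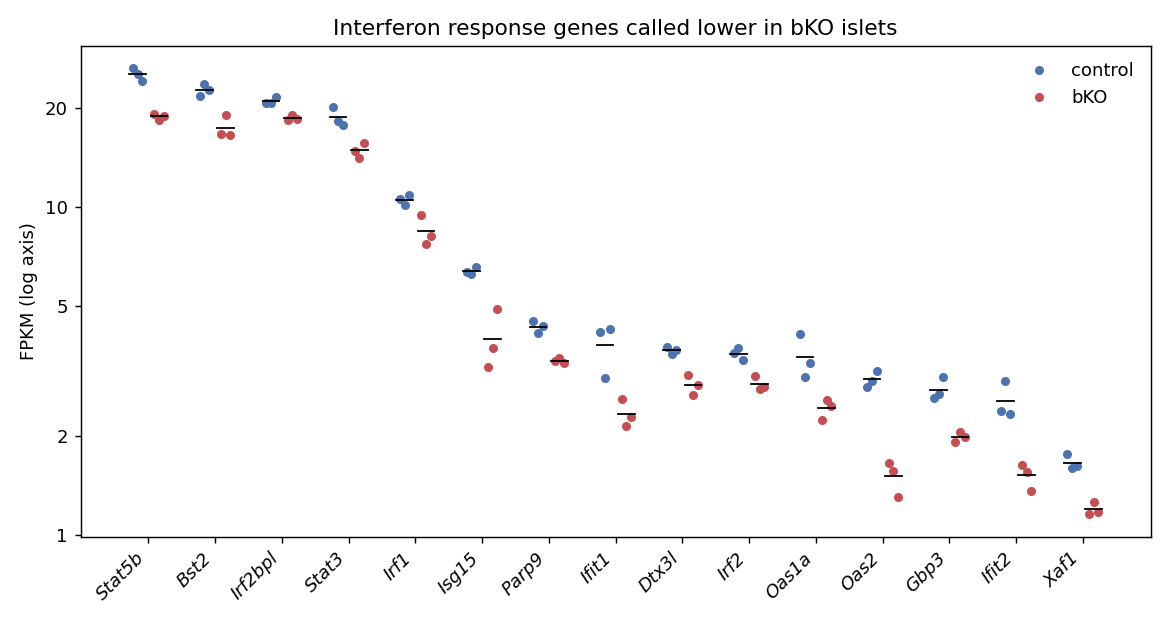
FPKM (y axis, log scale) of the 15 interferon response genes called lower, ordered by level, in 3 control (blue) and 3 bKO (red) libraries; black lines are group means. No red point reaches the lowest blue point of its gene, and the ratio of means is lowest in Oas2 (0.507) and Ifit2 (0.594).

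Other antiviral effectors gave a mixed picture, with 2 of 9 tested called. Bst2 (tetherin, chr8:71534255-71537456), which holds budding virus at the cell surface, stood at 21.8, 23.6 and 22.8 FPKM in control and at 16.7, 19.1 and 16.5 FPKM in bKO. It fell by 0.37 (SE 0.063, limma adjusted p = 0.00918) and was called whichever library was left out. Xaf1, a pro-apoptotic interferon target, fell by 0.28 at the very edge of the threshold (limma adjusted p = 0.0499) and was called in 0 of 6 fits that left out a library (0.0921 to 0.15). Rsad2 (viperin), which makes a chain-terminating nucleotide, lay lower in every bKO library but did not pass (log2 fold change -0.25, limma adjusted p = 0.058). With a library left out, Rsad2 passed without bKO 2, and its limma adjusted p ran from 0.0285 to 0.151. Of the 9, 7 had negative fold changes. Mx1, a dynamin-like GTPase against influenza, had a positive one. It was listed at 0.607, 0.383 and 0.685 FPKM in control and at 0.935, 0.918 and 0.714 FPKM in bKO, and did not pass (0.25, limma adjusted p = 0.185). Isg20, an RNA exonuclease, and Ifi27, a mitochondrial protein, the most abundant members after Irf2bp2, had log2 fold changes of -0.14 and -0.08 and were not called.

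In the interferon-gamma-linked GBP family 1 of 7 tested members fell, near the share of 11.4% among all genes tested. Its summed level was 14.6 ± 1.15 FPKM in control and 14.5 ± 0.38 FPKM in bKO (SD, n = 3). Gbp3, a guanylate-binding GTPase of host defence, went from 2.61, 2.68 and 3.02 FPKM to 1.91, 2.06 and 1.99 FPKM and fell by 0.33 (SE 0.074, limma adjusted p = 0.0212). Gbp3 passed without control 1 or control 2 and missed without the other 4 libraries (0.0527 to 0.0722). Gbp2 overlapped between groups (0.10, limma adjusted p = 0.566), and Gbp8 was higher in every bKO library at a low level, 0.361, 0.270 and 0.376 FPKM against 0.544, 0.817 and 0.691 FPKM (0.33, limma adjusted p = 0.0882). At an unadjusted p under 0.05 Gbp8 was higher, with a ratio of means of 2.04, and voom on recovered reads called it higher. Gbp8 overlaps Gbp9 and Gbp4 in position, so its separate value is uncertain. Among 6 tested interferon-gamma GTPases outside the rule, Igtp fell by 0.22 (limma adjusted p = 0.0355), passed without bKO 2 (0.044) and missed without the other 5 libraries (0.0645 to 0.109).

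Of the IFITM genes, whose membrane proteins block viral fusion, 3 were tested and limma called 0. At an unadjusted p under 0.05 Ifitm2 was higher, and voom on recovered reads called it higher. Ifitm3 was at 25.9, 29.7 and 26.2 FPKM in control and 25.4, 27.5 and 24.1 FPKM in bKO, with overlap. Ifitm2 was at 20.7, 13.0 and 14.6 FPKM in control and 21.4, 22.2 and 20.5 FPKM in bKO. Control 1 sat among the bKO libraries and the other controls well below. Its log2 fold change of 0.41 did not pass (limma adjusted p = 0.101), and without control 1 it did (0.00581).

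With the deposited scaling, interferon targets outside the name rule also included more falls than rises. In a list of other interferon-stimulated genes, 11 of 42 tested fell and 2 rose, against 11.4% lower and 8.96% higher among all genes tested. Lgals3bp, the most abundant of the list, went from 167.5, 163.3 and 154.9 FPKM to 186.7, 186.6 and 187.4 FPKM. It rose by 0.21 (limma adjusted p = 0.013) and was called whichever library was left out. Helz2 rose by 0.22 (limma adjusted p = 0.0328) and was called in 0 of 6 fits that left out a library. Nt5c3, a pyrimidine nucleotidase, fell by 0.29 and Cmpk2, a mitochondrial nucleotide kinase next to Rsad2, by 0.44 (limma adjusted p = 0.00381 and 0.00991). Ddx60, an RNA helicase, went from 1.72, 1.54 and 1.92 FPKM to 0.809, 0.985 and 0.928 FPKM and fell by 0.51 (limma adjusted p = 0.0105), and Parp14 fell by 0.32 (limma adjusted p = 0.0125). Of 22 tested antigen presentation genes, 6 fell and 16 were not called. The MHC class II genes led. Cd74, the invariant chain, went from 93.9, 88.2 and 84.8 FPKM to 59.8, 59.2 and 49.8 FPKM and fell by 0.66 (limma adjusted p = 0.00237). H2-Ab1 fell by 0.86 and H2-Eb1 by 0.75 (limma adjusted p = 0.00534 and 0.00282). Tapbp, which loads class I molecules, fell by 0.34 (limma adjusted p = 0.00491). Scaled by library totals, neither the other interferon-stimulated genes nor the antigen presentation genes held more called falls than called rises.

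Immune cell marker lists did not all move the same way. Of 17 macrophage markers, 13 were tested, 5 fell and 8 were not called, and the list's summed level ran from 124.1 to 139.9 FPKM in control and from 74.8 to 93.5 FPKM in bKO. Ctss, a lysosomal protease of antigen-presenting cells, went from 25.8, 23.5 and 25.2 FPKM to 13.7, 14.6 and 11.2 FPKM, a log2 fold change of -0.87 and a ratio of means of 0.53, and C1qa fell by 0.52. Over the 13 tested the median log2 fold change was -0.41, against -0.01 over all genes tested. Among the uncalled, Adgre1, Csf1r, Cx3cr1 and Lyz2 lay lower in every bKO library than in any control library, and Aif1 overlapped. The list was not uniform: Cd68, a lysosomal glycoprotein, overlapped between groups (log2 fold change 0.13, limma adjusted p = 0.583), and Mrc1, the mannose receptor, below the filter, had 29 reads in control and 70 in bKO. None of the 17 markers was at 0. The B cell marker list ran from 5.69 to 8.03 FPKM in control and from 1.62 to 2.54 FPKM in bKO, and most of that difference lay in Cd79a (423 reads against 104), whereas Ms4a1 had 0 reads in control. T and NK cell markers, none of which passed the filter, ran from 0.220 to 0.432 FPKM in control and from 0.860 to 1.11 FPKM in bKO, with Cd3g at 0. Most of that difference lay in Trac (2 reads against 36), and 5 of the 10 markers had fewer reads in bKO, all with 8 reads or fewer in either group. Dendritic cell markers overlapped, at 1.69 to 2.58 FPKM and 1.75 to 2.50 FPKM, with Cd209a at 0. Endothelial markers were higher in bKO, 152.6 to 179.2 FPKM against 196.3 to 201.0 FPKM, and 4 of 11 tested rose. Markers of alpha, delta and PP cells summed to 28930 to 32150 FPKM in control and 36010 to 36380 FPKM in bKO, and 3 of 9 tested rose, Ppy and Pyy most. The part of these cell types in the interferon gene values was not tested.

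**Figure D4:**
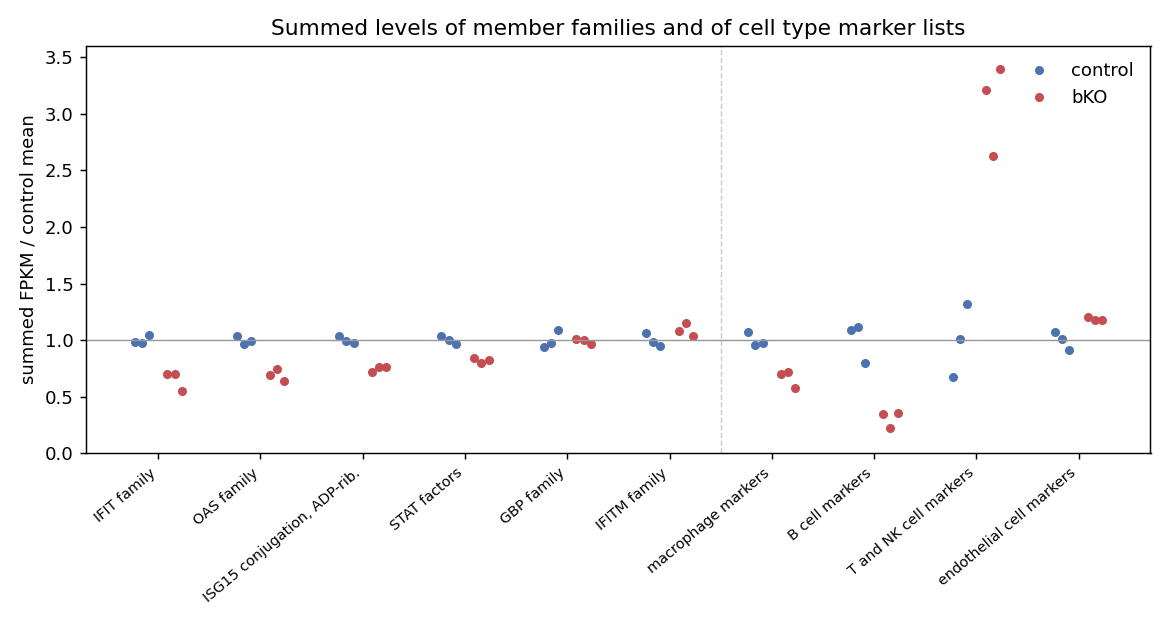
Summed FPKM divided by the control mean (y axis) for 6 families of interferon response genes (left of the dashed line) and 4 lists of cell type markers (right), in 3 control (blue) and 3 bKO (red) libraries. IFIT, OAS, ISG15 and STAT sums and macrophage and B cell markers are lower in all 3 bKO libraries, GBP sums overlap, and endothelial and T and NK cell markers are higher.

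How many members fell depended on the scaling. The deposited values are scaled by size factors, and hormone reads took a smaller share of bKO libraries. Scaled by library totals instead, the median of all genes moved to 0.13, 4 members were called lower (Stat5b, Isg15, Oas2 and Ifit2) and 4 higher (Irf2bp2, Ifitm2, Stat6 and Gbp8), against 4.69% lower and 23.4% higher among all genes. The share of calls that were higher went from 44.1% to 83.3% over all genes. Under that scaling 34 of the 58 log2 fold changes were negative and 24 positive, and among the 43 uncalled members 20 were negative and 23 positive. With totals counted without hormone reads, an alternative added after seeing the data, 9 members were lower and 0 higher (limma; 8.12% lower and 11.6% higher among all genes). Summed over all 84 genes the level went from 459.3 ± 10.5 to 413.6 ± 8.41 FPKM (SD, n = 3), from 434.1 to 441.9 under scaling by totals, and from 452.7 to 424.4 with totals counted without hormone reads. Relative to the median of all genes, the members' median was -0.171 with the deposited scaling, -0.186 with totals and -0.185 with totals without hormone reads. Rescaling a library shifts all its genes nearly alike, so these values had to be close and do not test the choice of scaling.

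**Figure D5:**
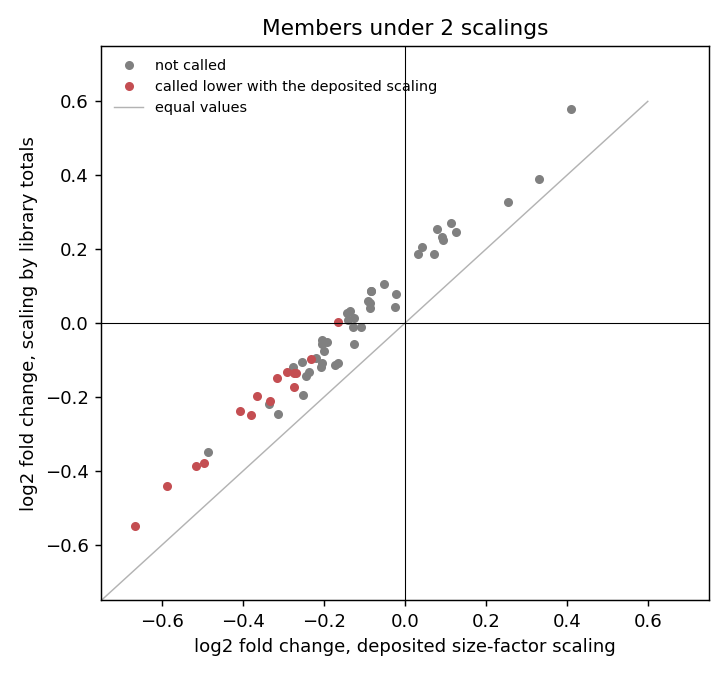
Log2 fold change of the 58 tested members with the deposited size-factor scaling (x axis) and with scaling by library totals (y axis); the grey line marks equal values, red marks genes called lower with the deposited scaling. All points lie above the line, by 0.06 (Ifi207) to 0.17 (Irf2bp2), and 24 of 58 lie above zero with totals against 11 with the deposited scaling.

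The 26 members that did not pass the filter add little. Of these, 20 had reads, at most 221 over the 6 libraries, and Ifi202b, Gbp2b, Ifi44l, Oas1d, Ifitm6 and Ifitm7 had 0 reads throughout. A count of 0 allows up to 3 reads per library, which for these genes is 0.0553 to 0.206 FPKM, for counting error only. Among low members the Ifi200 genes, which encode DNA-binding proteins of innate immunity, were the most frequent: 8 of 11 did not pass the filter, and Ifi203, Ifi204 and Ifi207 were tested and not called.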

How the data were processed

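The deposited table gives FPKM per gene, which the authors made from paired-end reads. Per the submitters' processing notes the tools were HISAT2 2.0.5, featureCounts 1.5.0-p3, DESeq2 1.20.0 and CASAVA on GRCm38/mm10, with no roles stated. Annotation release, strand setting and treatment of multiply mapped reads are not given in the sources used here. Each value times gene length was a whole number of reads within 0.01 for 100% of values, after 1 factor per library (size factors 0.923 to 1.101), so the reads could be recovered; 0 columns belonged to other samples. Replicates of a group differed beyond sampling noise.

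limma 3.58.1 (R 4.3.3, trend) was fitted to log2(FPKM + 1) over 15717 genes with at least 0.5 FPKM in at least 3 libraries, bKO against control, no covariate, two-sided, with Benjamini-Hochberg adjustment and a threshold of 0.05. Adjusted p-values cover all genes tested. The step was tested on simulated data. The simulation held no scaling difference, and changed genes were not among the lowest and changed by larger folds than most members here. It therefore does not check the choice of scaling or the calls of low genes and small changes. Members and gene lists were chosen with earlier results of these data known, and lists are described by counts and medians. Named genes are all called members, the 6 most abundant tested, the 4 uncalled with the largest change, a fixed set of pathway genes, and up to 4 called genes per list. Other genes (Jak2, Tyk2, Ifnb1, Ifng, Ifnk, Stat6, Lgals3bp, Helz2, Ms4a1, Cd68, Mrc1, Trac, Cd3g, Cd209a, Ucn3, Ins1, Ins2, Iapp and the members below the filter) were named after their values were seen. Some genes that the rules took are not reported here and stay in counts and sums. Alternatives were pseudocounts of 0.1 and 0.5, no filter, at least 1 FPKM, quantile normalization, scaling by library totals, voom on recovered reads, a replicate block and leaving out each library. Scaling by totals without hormone reads was added after the data were seen. Promoter windows came from RefSeq on GRCm38.p6. Python 3.11.15, numpy 2.4.6, pandas 2.3.3 and matplotlib 3.10.9 served the rest.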

Additional observations from a re-analysis of the deposited data

How the results depend on the processing

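Replicate numbers did not pair the samples (correlations of deviations between same-numbered libraries -0.052, -0.014 and -0.073). With the number as a replicate block, members called lower went from 15 to 7, all genes lower to 1152 and higher to 925, ligands and receptors to 0, double-stranded RNA genes to 1 and interferon-gamma GTPases to 0. Scaling by library totals gave 4 members lower and 4 higher, 737 genes lower and 3684 higher, 1 double-stranded RNA gene, 6 other interferon-stimulated genes, 0 GTPases, 11 antigen presentation genes, a members' median of -0.057 and a summed difference of 7.85 FPKM. Totals without hormone reads gave 9 members lower, 8 other interferon-stimulated genes, 0 GTPases and a summed difference of -28.3 FPKM. Without a filter there were 8 members lower, 8 other interferon-stimulated genes, 0 GTPases and a median of -0.126. Voom gave 2 members higher, 5 sensors, 0 GTPases, 11 antigen presentation genes and a median of -0.267, and a pseudocount of 0.1 a median of -0.248. Leaving out each library gave 6 to 10 members lower, 0 to 1 higher, 1037 to 1604 genes lower and 852 to 1179 higher, 0 ligands and receptors, 1 to 2 double-stranded RNA genes, 6 to 9 other interferon-stimulated genes and 0 to 1 GTPases. The log2 fold change changed sign under scaling by totals in Irf2bpl (0.004), Isg20 (0.028), Ifi27 (0.087), Ifitm3 (0.087, and 0.001 with quantile normalization), Irf2bp1 (0.034), Stat2 (0.009), Irf3 (0.107), Ifih1 (0.054) and Ddx58 (0.013), in Irf2bp2 without control 3 (-0.005 to 0.154 over the fits that left out a library), and without control 1 in Irf9 (-0.031 to 0.105) and Gbp2 (-0.014 to 0.151). Stat5b, Oas2 and Ifit2 were called lower in all 15 alternatives. With 3 libraries a group and 36 of 58 members under 5 FPKM, small changes could not be resolved, and 8 of the 15 calls held in no more than 2 of the 6 fits that left out a library. The cause of these differences was not tested.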
